A study of Mus musculus with 4 samples.

Results

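The replication-dependent histone genes supply the core and linker histones that package newly copied DNA. They were taken as the mouse protein-coding genes of a RefSeq table (assembly GRCm38.p6) whose current symbols are H1f1 to H1f6 or H2ac, H2bc, H3c or H4c with a number, or whose older symbols start with Hist1h, Hist2h, Hist3h or Hist4h. This gave 67 of 21774 genes, 63 by the current symbol and 4 by the older one only (H4bc24, H2bu2, H2aw and H4f16). Of these, 54 belong to the Hist1 cluster on chromosome 13, 10 to Hist2 on chromosome 3, 2 to Hist3 on chromosome 11 and 1 to Hist4 on chromosome 6. By product, 6 encode H1, 18 H2A, 18 H2B, 12 H3 and 13 H4.

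Open chromatin was profiled by ATAC-seq, in which a transposase inserts sequencing adapters into accessible DNA, in fetal liver cells of mice at embryonic day 14.5, when the liver is a main site of red cell formation. Wild-type (WT) mice gave 2 libraries and Hemgn knockout (Hemgn KO) mice gave 2. The gene's product, hemogen, is found in nuclei of hematopoietic cells. The labels give neither the kind of knockout allele nor the strain, and do not say that replicates came from separate embryos, so the spread between libraries may be technical. Whole fetal liver cells were used, so fewer cells of a type and less accessible chromatin per cell cannot be told apart.

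Each library was deposited as its own peak list. Values below follow the order WT replicate 1, WT replicate 2, Hemgn KO replicate 1 and Hemgn KO replicate 2, whose lists held 47858, 34181, 35426 and 43018 peaks. The most frequent background that the peak caller used was 5.67, 2.29, 2.49 and 3.8 fragments and stands here for relative depth, so WT replicate 2 was the shallowest library and WT replicate 1 the deepest. Single peaks are named in the lists with replicate numbers that differ from those of the labels; genotypes match, and the labels' numbers are used. A gene was given a boundary peak where a peak's summit lay within 1 kb of either end of the gene; where there were several, the one with the highest fold was used. Fold is the authors' value for how far the summit rises over the local background, as a ratio, and its percentile within a list (100 for the strongest peak) allows libraries to be set side by side. The number of fragments at the summit and the local background behind each fold were recovered from the deposited fold and −log10 p.

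As background, these genes are transcribed when DNA is replicated, and the cell-cycle kinase target NPAT gathers on them in nuclear bodies with the factors that cut the ends of their mRNAs. The mRNAs end in a stem-loop bound by SLBP and carry no poly(A) tail, and the typical gene is short and has no intron. A few members have longer annotated spans, up to 37455 bp at H2bc6, and for these the far boundary also counted. Many H2A and H2B genes lie head to head and share the stretch between their starts. Dividing red cell precursors, the main cells of the fetal liver, need large amounts of these histones.

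Promoters of 62 members had an entry in the RefSeq promoter table (build GRCm38.p6), which spans 250 bases before to 50 after the annotated start. The 7 below give the 150 bases before the start, 5′ to 3′ on the gene's own strand. They are shown because they belong to the members on which the results turn: H4c17 (chr13:21811596-21811745, plus strand) had the highest fold in 3 of 4 libraries, H4c3 (chr13:23698459-23698608, minus strand) a high fold on a high background, H3c11 (chr13:21783398-21783547, minus strand) one of the lowest folds, H4f16 (chr6:136804432-136804581, minus strand) the widest gap between genotypes, H2bc12 (chr13:22035671-22035820, plus strand) a head-to-head start, H1f4 (chr13:23622559-23622708, minus strand) a wide peak over a linker histone gene, and H2bc23 (chr13:21810200-21810349, minus strand) no peak in any library. The bases printed for H4c17 lie outside its peak, which began no earlier than position 21811806 in any library. Capitals mark matches on either strand to any of 5 motifs. These are the box CCAAT, the sequence TATAAA found in TATA boxes, the octamer with the letters ATTTGCAT, the H1 box with the letters AAACACA, and a part of the H4 promoter element with the letters GGTCCG. In H3c11, the reverse of GGTCCG and a CCAAT overlap and are written as 1 run of capitals.
H4c17: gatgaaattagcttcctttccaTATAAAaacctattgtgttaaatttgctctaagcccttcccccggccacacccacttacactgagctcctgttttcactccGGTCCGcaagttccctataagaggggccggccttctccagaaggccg
H4c3: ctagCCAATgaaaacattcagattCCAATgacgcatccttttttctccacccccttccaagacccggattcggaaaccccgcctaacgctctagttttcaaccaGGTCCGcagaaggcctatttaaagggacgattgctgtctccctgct
H4f16: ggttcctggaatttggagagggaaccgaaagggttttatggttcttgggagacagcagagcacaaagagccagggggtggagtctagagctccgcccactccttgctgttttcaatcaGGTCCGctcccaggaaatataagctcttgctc
H2bc12: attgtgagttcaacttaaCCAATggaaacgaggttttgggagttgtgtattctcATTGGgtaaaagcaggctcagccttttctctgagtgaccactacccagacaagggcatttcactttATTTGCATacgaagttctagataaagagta
H1f4: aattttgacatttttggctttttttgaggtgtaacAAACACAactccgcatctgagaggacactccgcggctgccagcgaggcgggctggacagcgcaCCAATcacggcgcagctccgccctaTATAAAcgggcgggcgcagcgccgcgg
H3c11: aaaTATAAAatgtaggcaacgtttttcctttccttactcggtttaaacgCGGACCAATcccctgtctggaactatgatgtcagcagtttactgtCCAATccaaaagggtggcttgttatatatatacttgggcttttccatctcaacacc
H2bc23: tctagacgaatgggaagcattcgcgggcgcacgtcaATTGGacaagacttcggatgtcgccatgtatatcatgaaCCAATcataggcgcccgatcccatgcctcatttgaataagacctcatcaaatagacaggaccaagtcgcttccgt

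Over the whole 300-base windows, the letters differed by histone. CCAAT, the box bound by NF-Y, was in 53 of 62 member promoters (85.5%), against 42.3% of 17492 promoters of protein-coding genes. All promoters of H1, H2A, H2B and H3 genes with an entry held it, and 3 of 12 of H4 genes did. GGTCCG was in 11 of 12 H4 promoters and in 2097 of the 17492, and AAACACA was in 5 of 6 H1 promoters and in 7.17% of all. The octamer was in 7 of 18 H2A and 7 of 16 H2B promoters, in 0 of the other members' promoters, and in 332 of the 17492. TATAAA was in 35 of 62 (56.5%), against 14.8%. GATAA, the core of erythroid GATA sites, was in 16 of 62 (25.8%), close to the 25.6% of all promoters, and CACCC, a KLF core, was in 21 of 62 (33.9%) against 61.7%. CCACCC, which contains CACCC, was in 9 of 62 (14.5%) against 36.2%.

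Several members are near-identical copies, which limits how reads can be placed between them. The windows of H2bc23 and H4bc24, both H2B genes by their older symbols, matched at 300 of 300 bases. H4c17 and H4c18 shared a run of 285 bases, H3c14 and H3c15 one of 231, H2ac18 and H2ac19 one of 219, and H2ac23 and H2ac24 one of 200. In all, 17 of 1891 pairs of promoters shared a run of at least 100 bases, of which 10 were head-to-head pairs whose windows overlap and 7 were separate places. The next longest run was 72 bases and the median over pairs was 9. Values at these copies are therefore uncertain.

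Most histone genes were open in both genotypes. A boundary peak was found in all 4 libraries at 58 of 67 members (86.6%), where all protein-coding genes gave 55.4%. In the 4 libraries, 59, 58, 60 and 59 members had a boundary peak, and because neighbours share peaks these came from 45, 45, 46 and 45 distinct peaks. No member was WT-only (a peak in both WT and no KO library) and none was KO-only; over all genes these shares were 0.303% and 0.294%. Merged over libraries, the peaks near members formed 50 regions, and 48 of these had a peak in all 4 libraries.

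No boundary peak in any library was found at 7 members, or 10.4% against 36.6% of all genes. H2bc1 and H2ac1 encode the testis histones TH2B and TH2A and form the outermost block of Hist1. H2bc23, H2ac23, H2ac24 and H4bc24 are the near-identical H2A and H2B copies at the other end of the cluster, 2 of which match over the whole promoter window. The remaining gene, H2bc6, lies beside H1f4: a peak of 1893, 1899, 1881 and 1896 bp over H1f4 covered one end of H2bc6 in every library, but its summit lay 1295, 1308, 1295 and 1295 bp away. In the 4 libraries, 7, 6, 6 and 7 peaks lay over or near the long span of H2bc6, so only a boundary peak is missing there. By product, all 6 H1 and all 13 H4 members had a peak in all 4 libraries, as did 15 of 18 H2A, 13 of 18 H2B and 11 of 12 H3 members.

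Both members with a peak in only some libraries were cases of where a summit fell in an open stretch. At H3c2, 3 libraries had a separate peak with its summit at most 3 bp from the gene, at percentiles of 56.8 in WT replicate 1 and 46.9 and 54.7 in Hemgn KO. In WT replicate 2, 1 peak of 1841 bp covered the gene and its neighbour H2ac4, with the summit 1187 bp away. At H2bc21, which had a boundary peak only in Hemgn KO replicate 1 (percentile 57.2), the same wide Hist2 peak was present in every library, with its summit 1098, 1102, 380 and 1082 bp from the gene. Neither gene is therefore a case of a peak present in one genotype and absent in the other.

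**Figure D1:**
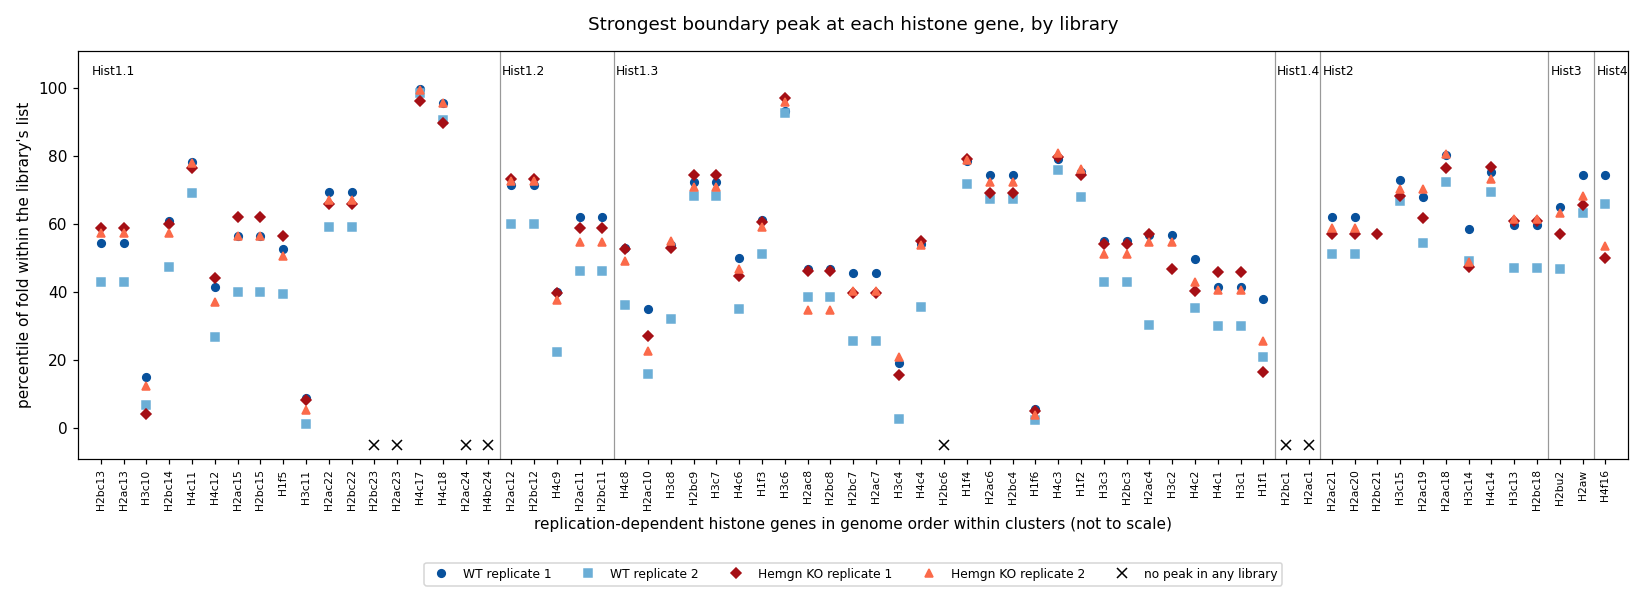
Percentile of fold (vertical axis, within each library's list) of the strongest boundary peak at each of the 67 histone genes (horizontal axis, genome order within clusters, where Hist1.1 to Hist1.4 are the 4 blocks of Hist1), 1 marker per library. Crosses mark the 7 genes with no boundary peak in any library. Most genes lie between 30 and 80, with H4c17, H4c18 and H3c6 near the top and H1f6, H3c11, H3c10 and H3c4 near the bottom, and WT replicate 2 is the lowest library at 50 of the 58 genes with 4 values.

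The histone peaks held many fragments on a high local background. Counting each peak once, the median number of fragments at the summit was 884, 330, 345.5 and 482, which was 2.10, 1.79, 1.67 and 1.82 times the median over boundary peaks of all genes in the same library. The median local background was 149, 56.9, 53.8 and 83.6 fragments, or 5.48, 4.55, 3.80 and 4.39 times that over all genes. The median fold was 6.57, 5.99, 6.79 and 5.92, which was 0.530, 0.523, 0.579 and 0.526 times that over all genes.

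The rank of a histone peak therefore depended on the measure. By fold, the median percentile of the 58 members with 4 values was 59.9, 46.7, 58.8 and 57.0, below the 85.6, 80.4, 81.4 and 84.4 of all genes with a peak in all 4 libraries. By fragments at the summit it was 94.6, 90.6, 88.6 and 92.3, above the 86.9, 81.8, 82.7 and 85.7 of all genes. By −log10 q it was 86.7, 80.5, 83.0 and 85.3, beside 87.3, 82.3, 82.9 and 86.0. The fragment percentile was above the fold percentile in all 4 libraries at 55 of 58 members (94.8%), against 39.2% of all genes with 4 values. The local background was over 10 times the library's most frequent one in all 4 libraries at 50 of 58 members (86.2%), against 24.8%.

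**Figure D2:**
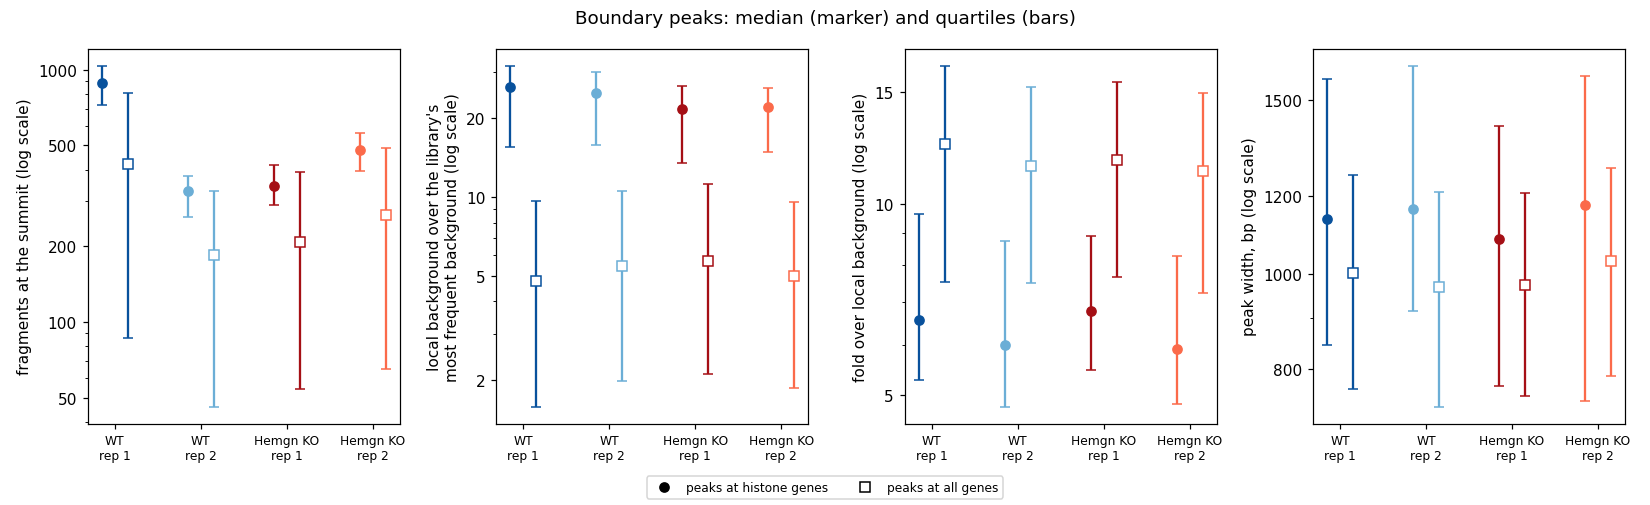
Medians (markers) and quartiles (bars) over distinct boundary peaks of histone genes (filled) and of all protein-coding genes (open) in each library, for fragments at the summit, local background relative to the library's most frequent one, fold, and width in bp, all on log axes. In every library the histone peaks have more fragments and a higher background than the median peak of all genes, and a lower fold.

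**Figure D3:**
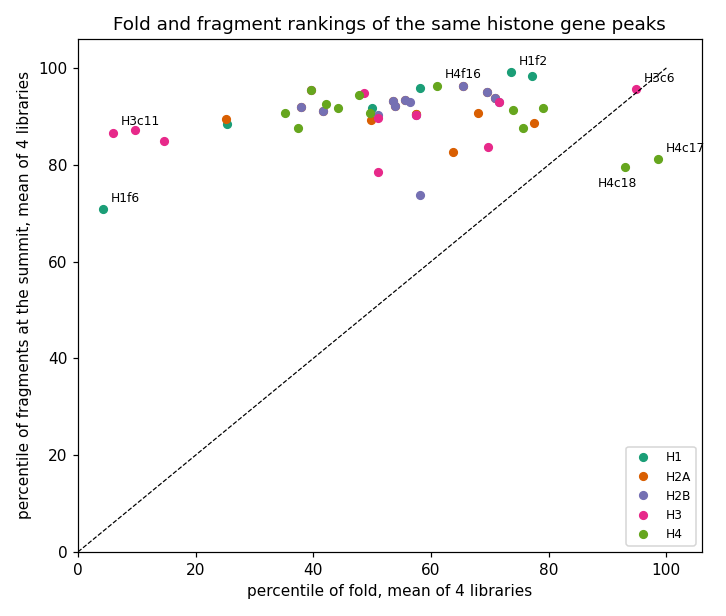
Percentile of fold (horizontal axis) against percentile of fragments at the summit (vertical axis), each the mean of 4 libraries, for 58 histone genes coloured by product; the dashed line marks equal percentiles. Nearly all genes lie above the line, while H4c17 and H4c18 lie below it.

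A pair of near-identical H4 genes, H4c17 and H4c18, ranked at or near the top by fold while differing from most members in the other measures. H4c17 had percentiles of 99.7, 98.8, 96.4 and 99.5, and its copy H4c18 had 95.8, 90.8, 89.8 and 95.7. Their folds, 25.5, 21.2, 18.9 and 22.6 at H4c17, came with a local background of only 2.90, 3.19, 3.25 and 2.87 times the library's most frequent one. By fragments, H4c17 stood at the percentiles 84.6, 78.9, 77.7 and 83.3, below most members. Their summits lay past the gene: 498, 496, 498 and 662 bp from the start of H4c17, which is 405 bp long, and 664, 662, 660 and 663 bp from that of H4c18, which is 406 bp long. Summits past the gene were not particular to this pair. At the copy H3c14, 664 bp long, they lay at 684, 720, 719 and 720 bp. At the copy H2ac19, 596 bp long, they lay at 724, 724, 723 and 726 bp, while those of H2ac18 lay upstream of its start. Without H4c17 and H4c18, the median percentiles of the other members were 59.2, 46.4, 58.0 and 56.7.

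Among the other Hist1 members, H3c6 and H4c3 ranked highest by fold. H3c6, an H3 gene, had percentiles of 93.4, 92.8, 97.2 and 96.1 and also high fragment percentiles of 96.7, 93.7, 95.1 and 96.6. H4c3, whose promoter above holds GGTCCG and 2 CCAAT boxes, had percentiles of 79.1, 76.1, 79.9 and 81.0. Among linker histones H1f4 and H1f2 had the strongest peaks: H1f2 had 1526, 554, 671 and 821 fragments at its summit, percentiles of 99.7, 98.8, 98.8 and 99.1.

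At the low end, H1f6 and 3 H3 genes had low folds with unlike numbers of fragments. H1f6, which encodes the testis linker histone H1t, had fold percentiles of 5.54, 2.28, 5.01 and 3.94 and the fewest fragments of the 58 members in every library (204, 79, 81 and 122). H3c11 had fold percentiles of 8.93, 1.14, 8.17 and 5.46, but fragment percentiles of 90.2, 83.0, 85.0 and 87.9, on a background of 43.2, 40.6, 36.2 and 35.5 times the most frequent one. H3c10 (15.2, 6.91, 4.15 and 12.5 by fold) and H3c4 (19.0, 2.68, 15.7 and 20.9) likewise had fragment percentiles above 80 in every library. A low fold at these H3 genes was thus a peak of many fragments on a high local background. At H1f6 the fragments were fewer, but still at percentiles of 75.6, 66.6, 67.8 and 73.2. Its background was 13.8, 12.5, 10.6 and 11.9 times the most frequent one.

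The smaller clusters had middle to high ranks. In Hist2, H2ac20 and H2ac21 share the widest peak of all members, 2694, 2592, 2260 and 2556 bp, at percentiles of 62.2, 51.2, 57.2 and 58.9. H2ac18 ranked highest there by median, with 80.6, 72.4, 76.6 and 80.6, and its near-identical copy H2ac19 had 68.1, 54.5, 62.0 and 70.4. H4c14 had 75.5, 69.5, 76.9 and 73.5, and H3c13 and H2bc18, which share a peak, had 59.9, 47.2, 61.1 and 61.5. The H3 copy H3c15 had 73.2, 66.9, 68.3 and 70.4, of which the last is the peak it shares with H2ac19; its own region stood at 69.2 there. H3c14, the other copy, had 58.5, 49.1, 47.5 and 48.8. In Hist3, H2bu2 had 65.1, 47.0, 57.2 and 63.4 and H2aw 74.5, 63.4, 65.8 and 68.5. The local background was lower in Hist2 and Hist3 than in Hist1, but not at H4f16 of Hist4, described further on: its median over members was 27.6, 26.1, 23.4 and 22.7 times the most frequent one in Hist1 and 16.5, 15.9, 12.8 and 13.1 times in Hist2. In Hist3, H2bu2 and H2aw had 5.69, 6.49, 5.58 and 6.01 times and 15.6, 17.5, 16.6 and 14.9 times.

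Most peaks covered the whole gene, and summits lay in different places for different histones. The gene lay entirely inside its peak at 39 of 59, 38 of 58, 38 of 60 and 40 of 59 members with a peak, and the median width over the 58 members was 1224, 1267, 1155 and 1226 bp, against 1058, 999, 1010 and 1075 bp for all genes. Summits were on the gene side of the start for H1 and H4 (medians of 153, 165, 171 and 160.5 bp, and of 129, 128.5, 137 and 120.5 bp, into the gene). For H2B the median summit lay upstream, at -258, -260, -272 and -257 bp. Head-to-head pairs were sought among the 62 members with a known strand. The other 5, such as H3c1, which shares a peak with H4c1, and H2bc4, which shares one with H2ac6, could not be placed in a pair. In all, 10 head-to-head pairs were found, all of an H2A and an H2B gene, with 163 to 280 bases between starts. In 7 of them a single peak was the boundary peak of both genes in all 4 libraries, as at H2ac12 and H2bc12 (chromosome 13, 22034853 to 22036862 in the coordinates of the lists, percentiles of 71.6, 60.2, 73.2 and 72.9). Its summit mostly lay outside the stretch between the starts. It lay between them in 3 libraries at H2ac11 and H2bc11, in 1 at H2ac22 and H2bc22 and in 1 at H2bc7 and H2ac7. At the rest of the 7 it lay between them in 0 libraries. The other 3 pairs, H2bc23 and H2ac23, H2ac24 and H4bc24, and H2bc1 and H2ac1, had no boundary peak.

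**Figure D4:**
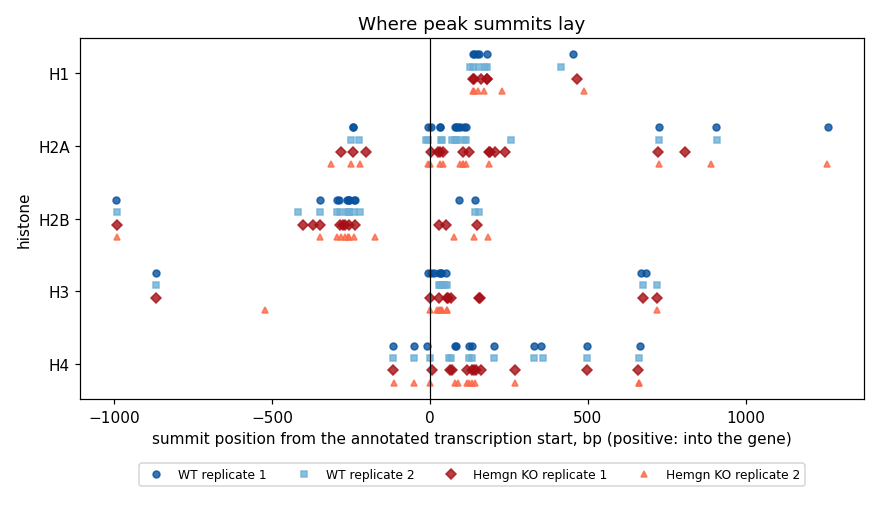
Distance of the peak summit from the annotated transcription start (bp, positive into the gene) for members with a known strand, by histone and library, 1 marker per gene. H1 summits lie inside the gene, and most H2B summits lie upstream of the start, with medians of -258, -260, -272 and -257 bp.

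Between genotypes, the local background of the histone genes was lower in Hemgn KO. The measure was chosen after its values were seen, as were fragments and width by genotype, and each was divided by the library's most frequent background except width. Over the 58 members the median local background was 26.6 and 24.7 times the most frequent one in WT and 21.9 and 22.0 times in Hemgn KO, while over all genes it was 5.95, 6.13, 6.64 and 5.92 times. Both KO libraries were below both WT libraries at 52 of 58 members (89.7%), against 16.9% of all genes with 4 values, and both KO libraries were above at 0, against 25.6%. The median ratio of the KO to the WT mean was 0.865 over members and 1.04 over all genes. Among 2997 genes whose background was likewise over 10 times the most frequent one in every library, 12.3% had both KO libraries below both WT, and the median ratio was 1.02; this set leaves out genes at the most frequent background, where a call can rest on rounding.

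The lower background was seen in each family and in both large clusters. It held at 43 of 46 Hist1 and 9 of 9 Hist2 members with 4 values, and at 6 of 6 H1, 14 of 15 H2A, 12 of 13 H2B, 10 of 11 H3 and 10 of 13 H4 members. The 6 exceptions were H4c17, H4c18, H3c6, both Hist3 genes and H4f16. Examples were H1f1, with a background of 31.8, 31.3, 29.8 and 28.5 times the most frequent one, and H3c11, with 43.2, 40.6, 36.2 and 35.5 times. Neighbouring members share peaks and the surroundings from which a background is taken, so the members are not independent of one another; counting each shared peak once, 40 of 46 had both KO libraries below both WT. Scaled instead to the median fragments at all gene boundary peaks, the count was 41 of 58, against 8.20% of all genes.

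Fragments at the summit and width went the same way, less widely. Scaled to the library's most frequent background, the median over members was 163, 147, 142 and 131. Both KO libraries were below both WT at 31 of 58 members (53.4%), against 14% of all genes, and above at 1 (H4c18), against 16.2%; without Hemgn KO replicate 1 the first count was 49. The median ratio of KO to WT was 0.902, and 1.01 over all genes. Peaks were narrower in both KO libraries than in both WT libraries at 30 of 58 members (51.7%), against 12.2%, and wider at 1, against 14.8%. All 9 Hist2 members with 4 values had fewer scaled fragments in both KO libraries, and 20 of 46 Hist1 members did. The Hist2 members are not independent of one another, since some share a peak and others are near-identical copies with uncertain values. Counting each shared peak once over all clusters, 24 of 46 had fewer scaled fragments in both KO libraries. The difference between genotypes in median width was −55 bp, with a pooled SD of 41.5 bp over libraries (n = 2 each), and it was −19.5 bp without Hemgn KO replicate 1 and −90.5 bp without Hemgn KO replicate 2. At H3c3, H2ac4 and H3c15 the strongest peaks of the 4 libraries were not all the same peak; among the other 55 members, whose peaks overlap in all 4 libraries, the counts below WT were 27 for width, 29 for fragments and 49 for background.

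Other gene groups were measured in the same way. Of 8 erythroid marker genes with 4 values (Klf1, Alas2, Hba-a1, Hbb-bs, Hbb-bt, Slc4a1, Tfrc and Epb42), 8 had a lower background in both KO libraries, with a median KO to WT ratio of 0.718, and 6 had fewer scaled fragments, with a ratio of 0.713. By background and fragments, the erythroid markers thus went the same way as the histone genes and further. By width they did not: 1 of the 8 was narrower in both KO libraries and 1 wider. Their median width ratio was 0.980, against 0.951 over the histone members. The part of a different cell make-up in the result was not tested. Markers of other cells with 4 values were few. Both megakaryocyte genes (Itga2b and Gp9) had fewer scaled fragments in both KO libraries, with a median ratio of 0.785, and 1 of them (Gp9) a lower background. The 3 hepatoblast genes (Hnf4a, Foxa2 and Apoa1) had overlapping fragments, with a median ratio of 1.01, and the background of Hnf4a was close to the library's most frequent value in all 4. All 4 macrophage, 4 granulocyte and 3 B lymphoid markers lacked a boundary peak in at least 1 library. Among histone genes that are not tied to replication and variants, 9 had 4 values, of which 2 (H2ax and H2az2) had a lower background in both KO libraries and 3 (H2az1, Macroh2a1 and H1f10) a higher one. The same counts were 4 lower and 3 higher of 23 genes for transcription and 3′ processing of histone mRNAs, and 1 lower and 5 higher of 18 histone chaperones. Over all genes with 4 values, 16.9% had a lower background in both KO libraries and 25.6% a higher one. Fewer scaled fragments in both were found at 14% of them.

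By within-list percentile of fold, a ratio of the 2 quantities that were both lower, the genotypes were close. The difference between genotypes in median percentile was 4.65 points (KO minus WT), with a pooled SD of 6.67 over libraries, and it turned to −2.15 without WT replicate 2. The KO mean was higher at 44 of 58 members and lower at 14; over all genes these counts were 6146 and 5920. Both KO percentiles were above both WT at 11 members (19.0%), against 12.6% of all genes, and below at 2 (3.45%), against 11.8%. WT replicate 2 was the lowest of the 4 libraries at 50 of 58 members (86.2%), against 54.4% of all genes, so the percentile of 1 library decides most of these counts: without WT replicate 1, 50 members had both KO percentiles above the remaining WT library, and without WT replicate 2, 34 had both below.

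The members with the widest gaps upwards were a shared H2A and H2B peak, an H3 gene and a shared Hist2 peak. H2bc13 and H2ac13 shared a peak at 54.6 and 43.0 in WT and 59.1 and 57.6 in KO. H3c6 stood at 93.4 and 92.8 in WT and 97.2 and 96.1 in KO, and H3c13 and H2bc18 at 59.9 and 47.2 against 61.1 and 61.5. In each of these the KO libraries lay above both WT libraries, by 3.01 points at H2bc13, 2.68 points at H3c6 and 1.24 points at H3c13.

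H4f16, the single gene of Hist4, differed most between genotypes. It encodes H4, and its peak (chromosome 6, 136803229 to 136804564 in the coordinates of the lists) held 1538, 591, 426 and 574 fragments at the summit. In both WT libraries this was the highest number of all 58 members, and in both KO libraries it was not. Divided by the library's most frequent background, this was 271 and 258 in WT and 171 and 151 in Hemgn KO, a KO to WT ratio of 0.609, the lowest of all members. The local background was 28.0, 29.8, 28.5 and 26.1 times the most frequent one. Its genotypes overlapped, unlike those of most members, while the scaled fragments at the summit were lower in both KO libraries.

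On the percentile scale, H4f16 stood at 74.6 and 65.9 in WT and at 50.2 and 53.5 in KO by fold, at 97.7, 95.6, 82.7 and 86.1 by −log10 q, and at 99.7, 99.3, 91.8 and 94.5 by fragments. The gap between the lower WT and the higher KO library was 12.4 points by fold, and 22 of 12066 genes (0.182%) had a KO-below gap of at least this size. The summit itself lay 204 and 204 bp into the gene in WT and 269 and 270 bp in KO. The neighbouring peak at H2aj, a gene for an H2A variant, had a similar background (28.3, 30.1, 28.8 and 26.0 times) and 172, 178, 223 and 166 scaled fragments, with overlapping genotypes. H3c14, the only other member with both KO percentiles of fold below both WT, had 368, 166, 140 and 180 fragments and a gap of 0.295 points.

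**Figure D5:**
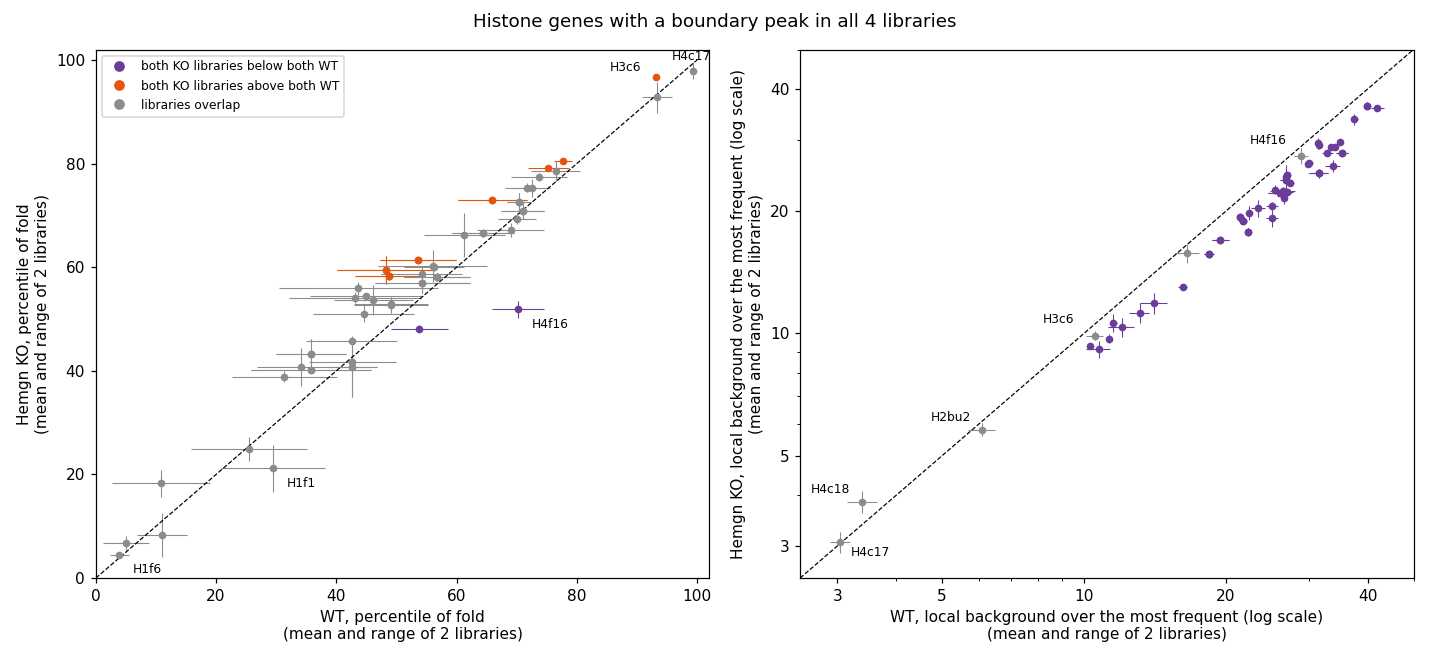
WT (horizontal axis) against Hemgn KO (vertical axis) for 58 histone genes, as the mean (point) and range (bars) of 2 libraries, for the percentile of fold (left) and the local background relative to the library's most frequent one (right, log axes); the dashed lines mark equality. On the left the genes scatter about the line with H4f16 well below it; on the right 52 genes have both KO libraries below both WT, and H4c17, H4c18, H3c6, H2bu2, H2aw and H4f16 do not.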

How the data were processed

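Peak lists of 4 ATAC-seq libraries, 2 WT and 2 Hemgn KO, were used, 1 list per library and none pooled. The submitters' processing notes name MACS2 2.2.7.1, Picard 2.21.4, Bowtie2 2.3.5 and SAMtools 1.9. What each did, how reads with several matches were handled, and which genome build was used: not given in the sources used here. Columns deposited by the authors hold the authors' fold (a ratio, with 1 added to both terms by MACS2), −log10 p and −log10 q, an integer score and the summit's offset. A list holds called peaks only, so absence means no called peak.

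Peaks were assigned to genes of a RefSeq table (113 genes on scaffolds left out) by summit, and coordinates of the lists are counted from 1. For each peak, fold and −log10 p were solved together for fragments (a whole number) and background, within a relative tolerance of 0.0001; 100% of peaks had a solution. The settings behind the background are not given, and it stands for depth only if they were alike in all libraries. The steps were tested on simulated data, and 100% of 2000 simulated peaks and 100% of 500 simulated assignments came back. Python 3.11.15, numpy 2.4.6, pandas 2.3.3 and scipy 1.17.1 were used.

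The members, lists and motifs were chosen with earlier results of these data known, so counts stand beside the same count over all genes and no p-value is given. Part of the erythroid marker list is not reported here. Named with every library's value were all members of Hist2, Hist3 and Hist4, the 4 highest and 4 lowest of Hist1 by median percentile, members with a peak in one genotype only, and the 5 widest gaps each way; others that are named were chosen after their values were seen. Alternatives were the distance, the way a peak is assigned, lists of equal length, a stricter q, other rankings, other member sets and leaving out each library; percentiles of fragments, shared peaks counted once, members whose peaks overlap in all libraries, leaving out H4c17 and H4c18, and all comparisons of local background, fragments and width between genotypes by gene were added after seeing the data.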

Additional observations from a re-analysis of the deposited data

How the results depend on the processing

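No paired analysis was possible because the results come from no test. The number of members with a boundary peak in all 4 libraries, the count of 0 WT-only members and the difference in width stayed within 1.5 times (counts) or 1 SD (width, −90.5 to −19.5 bp without 1 library) under all 17 alternatives. The difference in median percentile turned to −2.19 by recovered fragments, and ran from −2.15 to 11.3 as each library was left out. Members with both KO percentiles above both WT (11) numbered 19 and 21 in lists of equal length by fold and by −log10 q, 6 at a −log10 q of at least 3, 1 by percentile of −log10 q, 0 by fragments, 7 with each shared peak counted once, and 11 to 50 without 1 library. Members below (2) numbered 1 at 2 kb, 1 and 1 in lists of equal length by fold and by −log10 q, 1 by current symbols only, 9 by fragments, and 2 to 34 without 1 library. KO-only members (0) numbered 0 to 1 without 1 library. The local background was below WT at 52 members and at 53 to 56 without 1 library, scaled fragments at 31 and at 31 to 49, and width at 30 and at 32 to 45. A member with separate genotypes stays so when a library is left out. None of these counts without 1 library could therefore fall, and they do not measure stability. By −log10 q and by fragments, H3c13 and H2bc18 turned to −0.00962 and −1.78 points; at 2 kb the peak taken for H3c14 was the stronger one of H2ac18, whose difference is 2.14 points. H4f16 had both KO values below both WT under all 16 alternatives in which it had a value, with a difference of −6.28 points by fragments and −18.4 by fold. Other distances, ways of assigning a peak and member sets returned its main values, and leaving out a library could not undo the separation. Only lists of equal length, the stricter q and the other rankings changed the values and could have undone it. The causes were not tested.

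With 2 libraries a genotype, the shallowest of them WT, small differences in rank cannot be told apart from depth. The lists hold called peaks only, without reads, so accessibility outside peaks and the split of reads between identical copies were not analysed here.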

Other observations

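The Hist1 cluster also spans 50 other protein-coding genes, and these were mostly without peaks. A boundary peak was present in all 4 libraries at 5 of these 50, against 55.4% of all genes: Zfp184 and Zfp322a, which encode zinc finger proteins, Pom121l2, Abt1, and Hfe, which encodes a regulator of iron uptake. The 36 vomeronasal receptor genes of the Vmn1r family had no boundary peak in any library, and the 4 Slc17a transporter genes had one in some libraries only. Zfp322a ranked with the strongest histone peaks, at percentiles of 94.1, 95.3, 96.1 and 96.6 in WT replicates 1 and 2 and Hemgn KO replicates 1 and 2. Hfe had 74.3, 66.4, 64.1 and 67.6. None of the 5 had a lower local background in both KO libraries than in both WT libraries, and 3 of them (Zfp184, Pom121l2 and Hfe) had a higher one, where all genes give 16.9% and 25.6%, so that 0 of 5 is near the share over all genes; Zfp184 had 4.97, 5.32, 5.81 and 6.35 times the library's most frequent background.

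Genes that act on histone mRNAs or histones were open in nearly all libraries. All 4 libraries had a peak at 23 of 25 genes for transcription and 3′ processing and at 18 of 19 chaperones; Nfyc and Nasp had none. Npat stood at percentiles of 79.7, 71.6, 71.8 and 78.6, and Slbp at 87.2, 86.0, 86.5 and 87.4, with overlapping genotypes at both. Ccne2, a cyclin E gene, had a boundary peak only in KO, but the same peak was present in every library with its summit 1072 and 1073 bp from the gene in WT and 647 and 676 bp in KO. Among cell type markers, Cd79b, Blnk and Pecam1 had a boundary peak in KO only, and S100a8 and Camp in WT only. Of 18 replication-independent and variant histone genes, 9 had a peak in all 4 libraries, a share close to that of all genes.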
